A study of Rattus norvegicus with 16 samples.

Results

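Genes for 10 immediate early transcription factors were examined in cultured rat muscle satellite cells given an androgen receptor agonist. They were Egr1, Egr2, Egr3, Fos, Fosb, Fosl1, Jun, Junb, Ier2 and Nr4a1, and all probe sets annotated with exactly 1 of these symbols were taken. This gave 14 probe sets of the 20826 with a single symbol and 10 genes of 14217.

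Immediate early genes are transcribed within minutes of a growth factor or stress signal, without new protein synthesis. The ERK kinase cascade activates serum response factor (SRF) with its ETS partners at CArG boxes, and kinases act through CREB at cyclic AMP response elements (CREs). The proteins made are themselves transcription factors: EGR zinc finger proteins, FOS and JUN proteins that pair as AP-1, and the orphan nuclear receptor NR4A1. In muscle stem cells these genes are known for their response to isolation, injury and growth factors.

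The cells were levator ani satellite cells (LASCs), the stem cells of an androgen-dependent pelvic muscle of the rat, at passage 5. All groups were cultured with charcoal-stripped serum, which is poor in steroids. Vehicle groups received 0.2% DMSO and treated groups 10 nM NARA, which is a nonsteroidal agonist of the androgen receptor. The labels give no DMSO concentration for the treated groups, so whether the solvent was matched is not known. Exposure lasted 4 h or 48 h, with 4 arrays in each of the 4 groups. The labels give no age, strain or sex of the animals and do not say whether the biological replicates came from separate cultures, so the p-values reflect sample-to-sample spread that may be technical.

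Expression was measured on Affymetrix Rat Genome 230 2.0 arrays as MAS5 signals on a linear scale, which are comparable between arrays for 1 probe set but not between probe sets. Of the 16 arrays the authors excluded vehicle 48 h replicate 1 and both replicates 1 and 4 of NARA 4 h. The comparisons used the other 13, which left 4 arrays with vehicle and 2 with NARA at 4 h, and 3 with vehicle and 4 with NARA at 48 h. These correlated at r between 0.930 and 0.956 across probe sets, with median signals of 539 to 613. The 2 omitted NARA 4 h arrays had summed signals of 9 liver genes of 1342419 and 1626180, against 3266 to 5580 in the 13 arrays. The labelled cell type was checked against its markers. The annotation listed no probe set for Pax7, Pax3 or Myf5, which define satellite cells, and Myod1, the myoblast master regulator, lay below the minimum signal at 83.9 ± 87.2 (SD, n = 13). Of the 12 satellite cell and myoblast markers on the array 10 reached it, among them Myog at 1117, Des at 774 and Cdh15 at 1275. So did 6 of the 9 liver genes in these 13 arrays, among them Serpina1 at 891. A signal above the minimum therefore does not by itself show that a gene was expressed. Signals of 12 fibroblast markers, among them collagen genes, summed to between 627147 and 837303 in each array.

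Differences are of log2(signal + 50), fitted with limma over the 20904 probe sets whose mean signal reached 300, and "passed" means a Benjamini-Hochberg adjusted p under 0.05 over all of them. The number of arrays limits the precision. Of the 14 probe sets 13 were tested, covering 9 of the 10 genes. Fosb, a FOS family partner of JUN proteins, lay below the minimum at 178 ± 116 (SD, n = 13). Where a gene had several probe sets, its brightest stood for it in counts, and the others are given where their gene is described. By these, Fos averaged 612, Egr3 755, Junb 829 and Nr4a1 843 over the 13 arrays, below the liver gene Serpina1 at 891. Their signals alone therefore do not show that these genes were expressed. That they did not pass does not show that they failed to respond.

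The first comparison asked how these genes stood after 48 h with NARA. Egr2 was 3.48-fold and Egr1 1.62-fold lower with NARA than with vehicle, while no member passed higher. Egr2 is a zinc finger factor best known from myelinating Schwann cells, and Egr1 is its widely expressed relative that answers growth factors. The remaining 7 tested members did not pass, among them Fos and Jun, the founding partners of AP-1. Both genes that passed therefore belonged to the EGR family, whose other tested member, Egr3, did not pass. The 2 calls were not equally stable. When single arrays were left out in turn, Egr2 passed in all 13 fits and Egr1 in 6 of 13.

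Of 9 members tested at 48 h, 2 passed lower and 0 higher. Among all 11286 genes tested, 3.21% passed, 1.5% lower and 1.71% higher. At an unadjusted p under 0.05 there were 3 members, against 17.1% of all genes. The median log2 difference of the 9 members was -0.41, against -0.0051 for all genes, with 6 members negative and 3 positive. The groups did not overlap for 3 members, all lower with NARA, and 8.44% of all genes were lower without overlap.

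**Figure D1:**
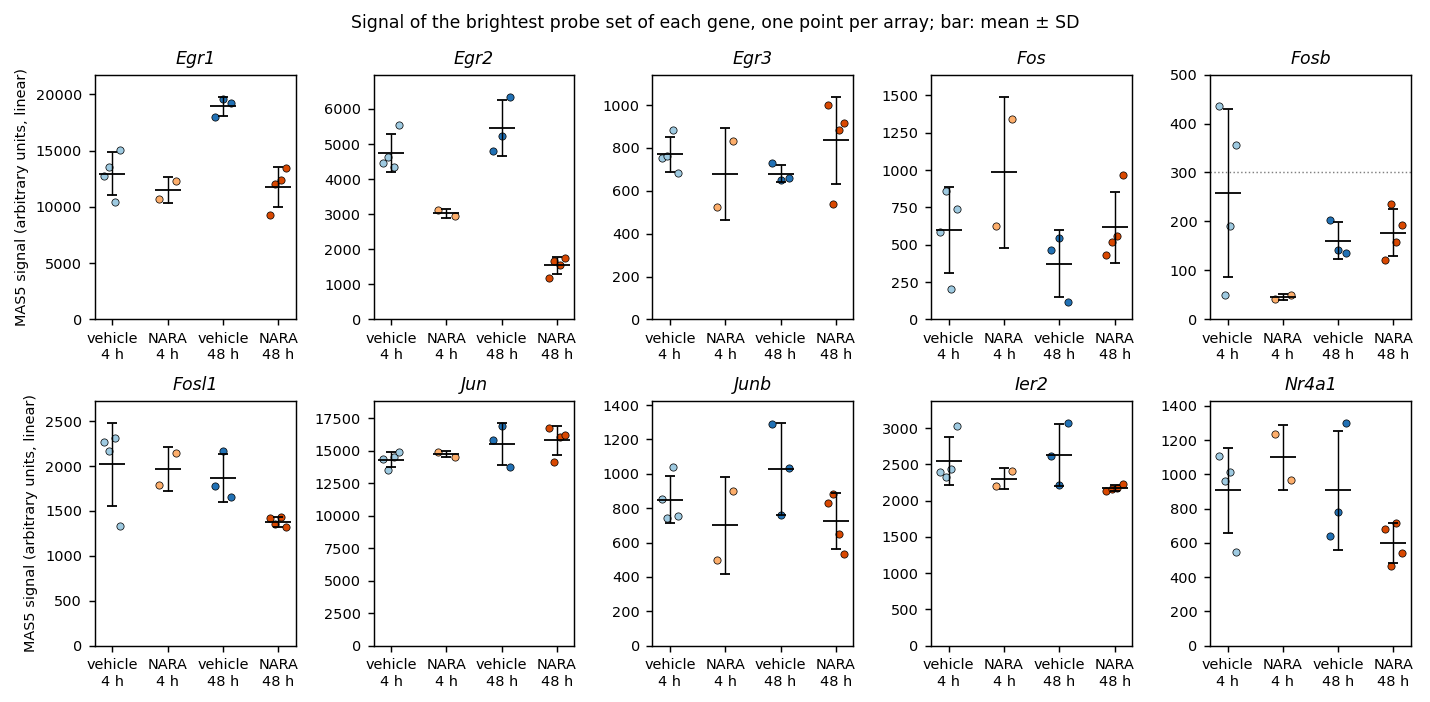
MAS5 signal (linear, arbitrary units) of the brightest probe set of each gene in the 13 arrays, grouped by treatment and time. Points are arrays, bars are mean ± SD, and the dotted line for Fosb is the minimum of 300. The 4 NARA 48 h arrays of Egr2 lie between 1187 and 1746, below the 3 vehicle 48 h arrays at 4805 to 6348.

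Egr2 signal was 4805, 5217 and 6348 in the vehicle 48 h arrays. It was 1187, 1659, 1561 and 1746 in the NARA 48 h arrays. Every NARA array was thus far below every vehicle array, and the omitted vehicle 48 h array, at 5637, lay among the other vehicle arrays. The means were 5457 ± 799 (SD, n = 3) and 1538 ± 246 (SD, n = 4). The log2 difference was -1.80 (SE 0.151, limma adjusted p = 0.00011), with a 95% interval from -2.13 to -1.47. Among 11286 genes it was the 6th lowest difference and the 9th smallest p. This call held without each of the 13 arrays in turn, at adjusted p between 0.000232 and 0.000977. It was lost with all 16 arrays in the fit (adjusted p = 0.385), where the log2 difference was -1.81. With only vehicle 48 h replicate 1 put back, an alternative chosen after seeing the data, the call held (adjusted p = 1.7e-05).

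The second Egr2 probe set was dim. It read 712, 552 and 590 in the vehicle 48 h arrays against 98.3, 473, 254 and 182 in the NARA 48 h arrays. These groups did not overlap either. Their log2 difference was -1.29 (SE 0.464, adjusted p = 0.185) and did not pass.

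The upstream sequence of Egr2 is shown because it carries, side by side, the 2 kinds of element through which growth factor signals reach these genes. It comes from the RefSeq table of build GRCr8, minus strand, chr20:21054442-21054691, the 250 bases before the transcript start that the table uses. That start lies inside the RefSeq span of the gene, chr20:21050149-21055201. Capitals mark the CArG box and the CRE core.
Egr2: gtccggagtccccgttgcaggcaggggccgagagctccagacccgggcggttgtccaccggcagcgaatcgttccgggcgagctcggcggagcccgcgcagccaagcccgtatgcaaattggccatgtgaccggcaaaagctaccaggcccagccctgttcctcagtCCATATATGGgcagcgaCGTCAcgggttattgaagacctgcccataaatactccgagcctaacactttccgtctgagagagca

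Egr1 signal was 18009, 19617 and 19196 in the vehicle 48 h arrays. It was 9282, 12016, 12344 and 13411 in the NARA 48 h arrays. The groups did not overlap, and the omitted vehicle 48 h array read 18755. The means were 18941 ± 834 (SD, n = 3) and 11763 ± 1758 (SD, n = 4), a log2 difference of -0.70 (SE 0.151, limma adjusted p = 0.0311). Its 95% interval ran from -1.03 to -0.37. The call was lost when vehicle 4 h replicate 1 or any 1 of the 3 vehicle 48 h arrays was left out. It was lost too without NARA 48 h replicate 1, 2 or 3. In these fits the adjusted p was up to 0.114 and the log2 difference lay between -0.73 and -0.59. The call was also lost in a fit of the 48 h groups alone (0.105), with no minimum signal (0.0703) and with all 16 arrays (1.00). It held with only vehicle 48 h replicate 1 put back (0.0122), an alternative chosen after seeing the data.

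Egr3, another EGR factor, was less regular. Its signal was 728, 652 and 662 in the vehicle 48 h arrays and 1001, 538, 885 and 914 in the NARA 48 h arrays. The NARA arrays lay on both sides of the vehicle arrays. A log2 difference of 0.24 (SE 0.203, adjusted p = 0.617) resulted, with a 95% interval from -0.20 to 0.69. Whether Egr3 differed from Egr1 and Egr2 in its response was not tested.

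**Figure D2:**
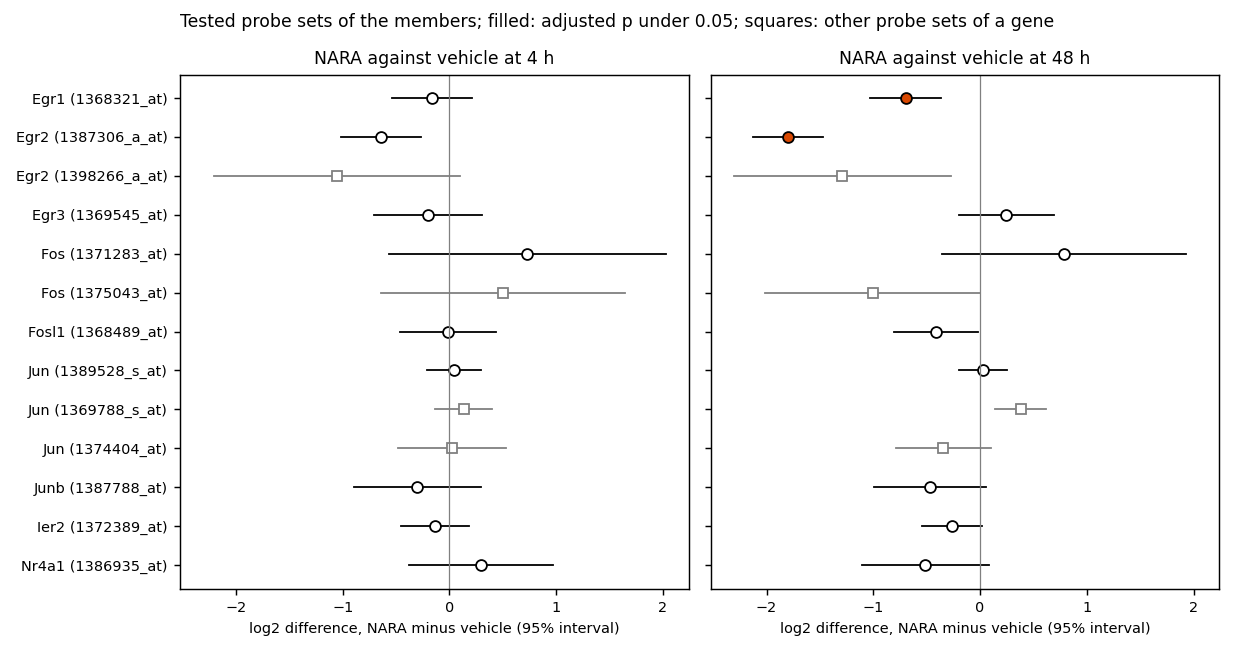
Log2 difference of NARA minus vehicle with its 95% interval for the 13 tested probe sets, at 4 h and at 48 h. Circles are the brightest probe sets, squares the others of a gene, and filled symbols passed. At 48 h the filled symbols are Egr2 at -1.80 and Egr1 at -0.70, and none is filled at 4 h.

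Among the FOS family, Fosl1 (FRA-1), a slower and longer-lived AP-1 subunit, was the closest to the threshold. Its signal was 1775, 2173 and 1653 in the vehicle 48 h arrays and 1425, 1350, 1432 and 1317 in the NARA 48 h arrays. The groups did not overlap and the NARA arrays lay close together. With a log2 difference of -0.41 (SE 0.181, adjusted p = 0.288), Fosl1 did not pass. Its upstream sequence is shown for contrast with Egr2. It holds 2 CRE cores, in capitals, and no CArG box (plus strand, chr1:212183635-212183884, GRCr8).
Fosl1: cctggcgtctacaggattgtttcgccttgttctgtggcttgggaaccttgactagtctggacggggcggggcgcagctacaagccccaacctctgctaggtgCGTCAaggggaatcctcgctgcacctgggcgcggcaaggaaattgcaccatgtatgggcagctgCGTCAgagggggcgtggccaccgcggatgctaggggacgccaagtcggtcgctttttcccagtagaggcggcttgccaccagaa

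Fos, the prototype of the family, gave different signs with its 2 probe sets. The brighter read 461, 542 and 119 in the vehicle 48 h arrays and 431, 516, 561 and 965 in the NARA 48 h arrays. Its log2 difference was 0.79 (SE 0.521, adjusted p = 0.512). The dimmer read 250, 381 and 782 against 103, 306, 155 and 233, a log2 difference of -1.004 (SE 0.460, adjusted p = 0.314). Both overlapped between groups, and neither gave a direction for the gene. Fosb, which was not tested, read 136 to 204 in the vehicle 48 h arrays and 122 to 235 in the NARA 48 h arrays.

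Jun, the main partner of FOS proteins, also depended on the probe set. The brightest read 15866, 16943 and 13790 in the vehicle 48 h arrays and 16766, 14168, 16087 and 16199 in the NARA 48 h arrays. These overlapped, with a log2 difference of 0.027 (SE 0.102, adjusted p = 0.932) and a 95% interval from -0.20 to 0.25. Another probe set read 9991, 12790 and 12042 against 13827, 15647, 14496 and 16248, without overlap. Its log2 difference was 0.38 (SE 0.107, adjusted p = 0.0948). A further one had a log2 difference of -0.35 (SE 0.203, adjusted p = 0.451), and none of the 3 passed.

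Junb, a JUN family member that often restrains JUN, read 1292, 758 and 1033 in the vehicle 48 h arrays and 832, 882, 648 and 534 in the NARA 48 h arrays. The groups overlapped. Their log2 difference was -0.47 (SE 0.240, adjusted p = 0.372), with a 95% interval from -0.997 to 0.053.

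Ier2, a short-lived nuclear protein induced with the EGR and AP-1 genes, read 2618, 2219 and 3071 in the vehicle 48 h arrays. It read 2131, 2162, 2177 and 2224 in the NARA 48 h arrays. The NARA arrays were nearly equal, and the highest of them lay just above the lowest vehicle array. Ier2 differed by -0.26 on the log2 scale (SE 0.128, adjusted p = 0.354). Its upstream sequence is shown because it holds the whole palindromic CRE TGACGTCA, in capitals, and no CArG box (plus strand, chr19:40399123-40399372, GRCr8).
Ier2: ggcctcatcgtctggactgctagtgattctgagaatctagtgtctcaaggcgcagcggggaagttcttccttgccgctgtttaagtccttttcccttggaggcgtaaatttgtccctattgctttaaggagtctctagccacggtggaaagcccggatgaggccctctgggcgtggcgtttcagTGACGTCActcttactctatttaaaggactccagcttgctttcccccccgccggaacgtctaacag

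Nr4a1 (NUR77), an orphan nuclear receptor active in muscle metabolism, read 642, 783 and 1300 in the vehicle 48 h arrays and 682, 468, 716 and 543 in the NARA 48 h arrays. The groups overlapped, and vehicle 48 h replicate 4 was the highest of all. The log2 difference was -0.51 (SE 0.271, adjusted p = 0.394), with a 95% interval from -1.11 to 0.080.

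**Figure D3:**
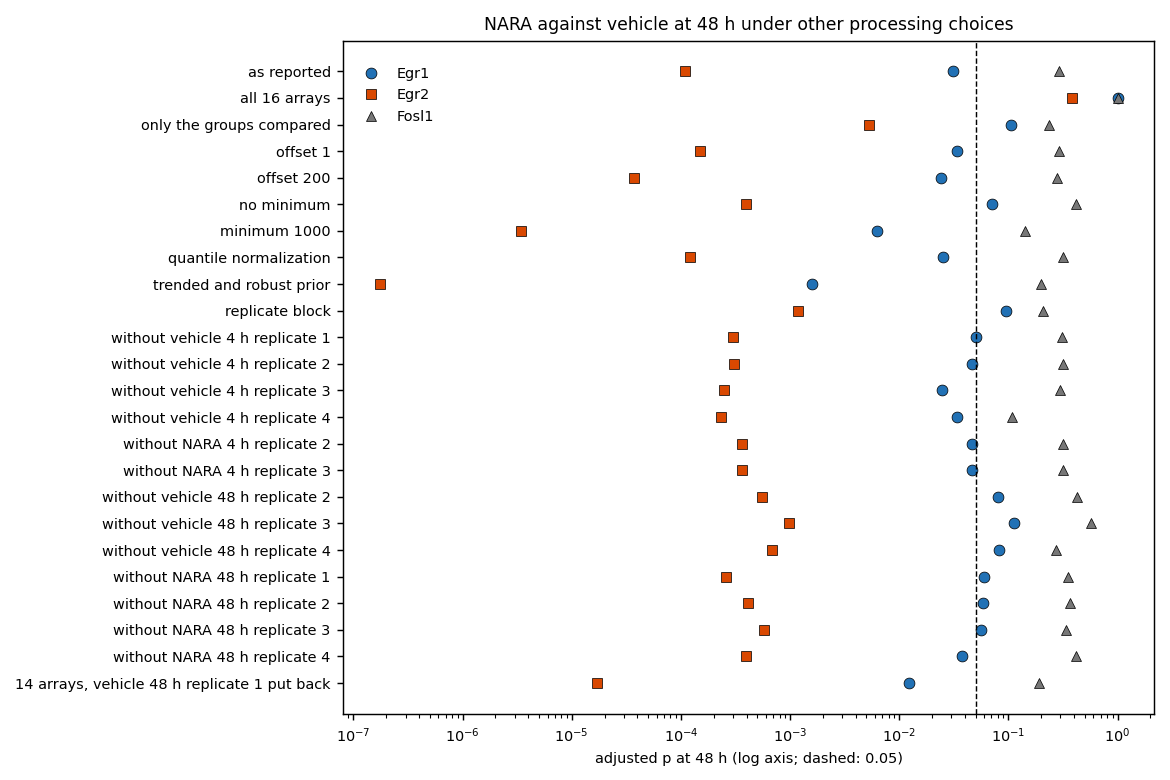
Adjusted p (log axis) of Egr1, Egr2 and Fosl1 at 48 h under each processing choice, with the dashed line at 0.05. Egr2 lies left of the line in every setting drawn but the fit of all 16 arrays, Egr1 crosses it, and Fosl1 lies right of it throughout.

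Single markers of other groups also differed at 48 h, where Egr2 and Egr1 were lower with NARA than with vehicle. The 12 satellite cell and myoblast markers on the array summed to between 12520 and 15551 in the NARA 48 h arrays, below the 19902 to 23431 of the vehicle 48 h arrays. Sums of probe sets are set by the few with high signals, here Cxcr4, a chemokine receptor, and Sdc4, a syndecan. Cxcr4 averaged 4923 ± 401 (SD, n = 3) with vehicle and 590.0 ± 218 (SD, n = 4) with NARA, and Sdc4 10613 ± 2169 and 6362 ± 800.2, both without overlap. The list as a whole went both ways, with 7 means lower and 5 higher with NARA, and its median gene mean was 846 with vehicle and 766 with NARA. Ncam1, an adhesion molecule of myoblasts, was higher without overlap, at 1384 ± 251 against 880 ± 199.9. The 6 smooth muscle markers summed to 10877 to 15316, below 15403 to 17909, but 3 means were lower and 3 higher, and their median gene mean was 1304 with NARA against 1171 with vehicle. Among these, Tagln, an actin-binding protein, was lower without overlap, at 5579 ± 1175 against 8547 ± 1576. The 12 fibroblast markers also went both ways, with 6 means lower and 6 higher with NARA, and 5 did not overlap. Lum (21044 ± 1399 against 43771 ± 2634), Pdgfra (5458 ± 323 against 9292 ± 1445) and Dcn (4847 ± 845 against 7114 ± 654) were lower. Col1a2 (145320 ± 12692 against 124165 ± 17743) and Col3a1 (134610 ± 13348 against 102939 ± 9597) were higher. The part of these markers in the result was not tested. In bulk RNA, fewer cells of a type and less RNA per cell cannot be told apart. The 6 markers of Schwann cells, where Egr2 is prominent, summed to 27869 to 32027 with NARA and 24404 to 28623 with vehicle at 48 h, so they overlapped. Pmp22 made up most of this sum, at 27823 ± 1699 with NARA and 25088 ± 2104 with vehicle. The sum therefore says little about the dimmer markers. Of the 6 means, 2 were lower and 4 higher with NARA, all with overlap. The heat shock list, a sign of handling stress, overlapped too, at 29812 to 36438 against 29386 to 32788.

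The next comparison asked whether the genes already differed after 4 h. No member passed, and neither did any of the 11286 genes (0.0%). Egr2 came nearest among the members. It read 4470, 4645, 4359 and 5543 in the vehicle 4 h arrays and 3111 and 2934 in the 2 NARA 4 h arrays, so the groups did not overlap. The log2 difference was -0.64 (SE 0.171, unadjusted p = 0.00313, limma adjusted p = 0.607). It was the only member at an unadjusted p under 0.05, where 4.28% of all genes stood, and the only one without overlap, where 7.44% of all genes were lower without overlap. The second Egr2 probe set read 534, 669, 168 and 757 against 235 and 172, which overlapped (log2 difference -1.05, SE 0.526, adjusted p = 1.00).

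Egr1 read 12740, 13498, 10454 and 15042 in the vehicle 4 h arrays and 10688 and 12283 in the NARA 4 h arrays. The NARA arrays lay within the vehicle range. Egr1 differed by -0.16 on the log2 scale (SE 0.171, adjusted p = 1.00), with a 95% interval from -0.54 to 0.21.

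Of the 9 members 6 were negative and 3 positive at 4 h, with a median log2 difference of -0.14 against -0.0016 for all genes. Egr3 stood at -0.20, Fosl1 at -0.0096, Junb at -0.30 and Ier2 at -0.14. Positive values were 0.73 for Fos, 0.042 for Jun and 0.30 for Nr4a1. For these brightest probe sets all groups overlapped. The dimmer Fos probe set stood at 0.51 (SE 0.521), with overlap. Of the other Jun probe sets, 1 read 12020 and 12210 with NARA, above the vehicle arrays at 10706 to 11584, with a log2 difference of 0.13 (SE 0.122, adjusted p = 1.00), and 1 stood at 0.025 (SE 0.230), with overlap. Fos was the least regular, at 585, 863, 206 and 740 with vehicle and 627 and 1342 with NARA. Junb read 855, 744, 1039 and 753 with vehicle and 500 and 901 with NARA, on both sides of most vehicle arrays. With 2 NARA arrays, the 95% intervals were wide, from -0.56 to 2.02 for Fos and from -0.90 to 0.29 for Junb. Fosb read 40.8 and 49.1 with NARA and 49.1 to 435 with vehicle, below the minimum signal and with no test.

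The change of the NARA effect between the times was tested directly. For Egr2 the 48 h effect was lower than the 4 h effect by 1.16 log2 units (-1.16, SE 0.228), at an unadjusted p of 0.000321 and a limma adjusted p of 0.0931, and it did not pass. It passed with a minimum signal of 1000 (adjusted p = 0.0173), with a trended and robust prior (0.0099) and with vehicle 48 h replicate 1 put back (0.0479). For Egr1 the difference was -0.54 (SE 0.228, adjusted p = 0.524). These were the 2 members at an unadjusted p under 0.05, against 9.18% of all genes. No member passed, and 0.151% of all genes did. Nr4a1 stood between Egr2 and Egr1 by size, at -0.81 (SE 0.410, adjusted p = 0.606), and 7 of the 9 members were negative. The other probe sets stood at -0.24 for Egr2, -1.51 for Fos, and 0.25 and -0.37 for Jun, and none passed.

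The vehicle arrays were compared between times, to see what culture alone did. Again no member and none of all genes passed (0.0%). Egr1 was the exception in its arrays: the 3 vehicle 48 h arrays, at 18009 to 19617, all lay above the 4 vehicle 4 h arrays, at 10454 to 15042. Its log2 difference was 0.56 (SE 0.151, unadjusted p = 0.00319, limma adjusted p = 0.469). It was the only member at an unadjusted p under 0.05 (7.87% of all genes) and the only one without overlap (4.39% of all genes were higher without overlap). The NARA 48 h arrays of Egr1, at 9282 to 13411, overlapped the vehicle 4 h arrays. The comparison of vehicle between times and the 48 h effect share the vehicle 48 h arrays. With NARA, Egr1 averaged 11486 at 4 h and 11763 at 48 h, and Egr2 3023 and 1538. Change over time with NARA was not tested. Between the vehicle groups Egr2 differed by 0.19 (SE 0.151, adjusted p = 0.813), and its arrays overlapped. The median of the 9 members was 0.044, with 5 positive and 4 negative. The other probe sets stood at 0.35 for Egr2, 0.80 for Fos, and 0.063 and 0.19 for Jun, and none passed.

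Upstream sequences were compared for the 7 members in the RefSeq promoter table, over windows from 250 bases before to 50 after the start, on both strands. Egr3, Fos and Jun had no entry. The windows of Egr2, Fosb and Nr4a1 lie inside the RefSeq spans of these genes. They stand before the start that the table uses, but not before the whole gene. A CArG box stood in 2 of the 7 windows and in 1.64% of all 33469 windows. Both were EGR genes: Egr1 had 2 boxes, beginning 105 and 83 bases before the start, and Egr2 had 1, beginning 83 bases before it. Windows with 2 or more CArG boxes numbered 7 of 33469. The CRE core TGACG stood in 6 of the 7, all but Fosb, and in 21.2% of all windows. It is part of the whole CRE TGACGTCA, which only Ier2 had (1.83% of all windows). The 250 bases before the start held 43.6% G and C in Fosb and 53.2% to 74.8% in the other 6 members. The median of all windows was 51.2%. The part of base composition in the motif counts was not tested. Nr4a1 had 4 CRE cores.

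The other motifs were sparser. The AP-1 site, searched as TGANTCA, stood in 0 of the 7 and in 7.33% of all windows. The EGR site GCGTGGGCG stood in 0 of the 7 (0.544% of all windows), and its core GTGGGCG, which is part of it, in Egr1 alone (7.12%). The ETS core CCGGAA stood in Egr2, Ier2 and Nr4a1 (14.95%). The TATA box letters TATAAA stood in Junb, 49 bases before the start, and in Fosb on the opposite strand, 180 bases before it (14.2%). The androgen response half-site AGAACA, the hexamer of the receptor that NARA binds, stood in Fosl1 alone (20.7%). A match is a description of the letters and shows no binding.

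**Figure D4:**
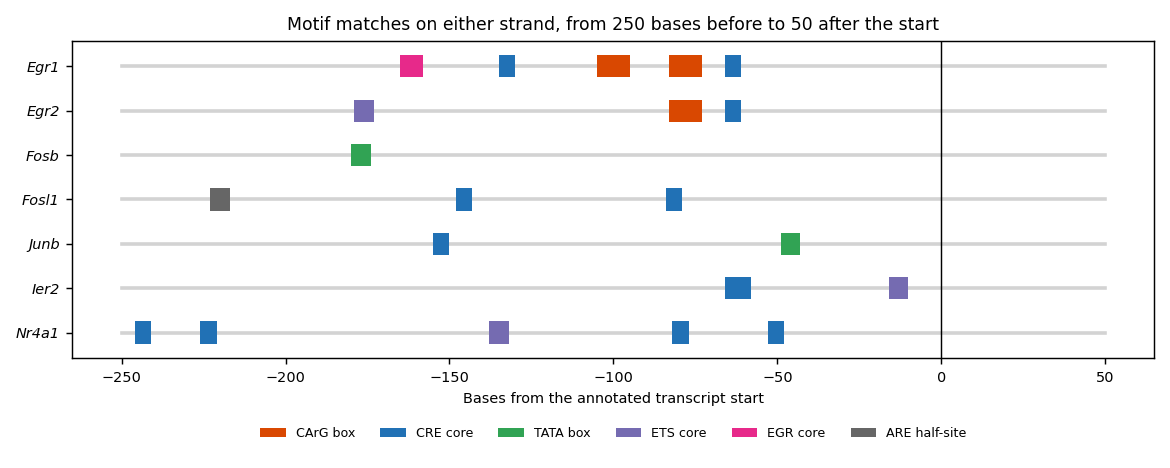
Positions of motif matches on either strand in the windows of the 7 members, in bases from the transcript start of the table. CArG boxes appear in Egr1 and Egr2 alone, with the CRE core 66 bases before the start in both.

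In Egr1 and Egr2 the CArG box at 83 bases was followed by a CRE core at 66 bases, with 7 bases between them. This arrangement was searched for in all windows after it had been seen in these 2. It stood in 4 of 33469 windows, those of Egr1, Egr2, Dusp5 and a long noncoding RNA gene on the other strand whose window overlaps that of Dusp5. The stretch is shown for Egr2 (minus strand, chr20:21054503-21054524) and Dusp5 (plus strand, chr1:262543702-262543723), build GRCr8, with the CArG box and the CRE core in capitals.
Egr2: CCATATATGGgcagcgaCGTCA
Dusp5: CCTTATATGGgcactcaCGTCA

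Dusp5 encodes a nuclear phosphatase that inactivates ERK. It read 2078, 1654 and 1610 in the vehicle 48 h arrays and 1311, 1010, 955 and 1273 in the NARA 48 h arrays, without overlap. Its log2 difference was -0.63 (SE 0.167, adjusted p = 0.0777) and did not pass. At 4 h it was -0.033 (SE 0.190, adjusted p = 1.00).

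The wider pathway was counted in 6 gene lists at 48 h, to be read against the 1.71% of all genes that passed higher and the 1.5% that passed lower. Of 19 other immediate early genes tested, 0 passed, with a median log2 difference of -0.093. The smallest p among them belonged to Bhlhe40, a circadian repressor, at -0.75 (SE 0.198, adjusted p = 0.0775). Ier5 stood at 0.38 (adjusted p = 0.0878), Nfil3 at 0.47 (0.104) and Maff, a small MAF factor, at -1.64 (0.139). Of 19 ERK cascade genes and activating factors, 1 passed. It was Elk3, an ETS partner of SRF, which fell from 5097 ± 813 (SD, n = 3) to 3526 ± 254 (SD, n = 4), a log2 difference of -0.52 (SE 0.115, adjusted p = 0.0367). Srf itself stood at -0.043 (adjusted p = 0.890) and the CREB gene Creb1 at -0.11.

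Of 9 ERK feedback inhibitors, 1 fell and 1 rose. Dusp6, the cytoplasmic ERK phosphatase, fell from 3199 ± 299 (SD, n = 3) to 1881 ± 323 (SD, n = 4), a log2 difference of -0.76 (SE 0.161, adjusted p = 0.0282). Errfi1, an inhibitor of the EGF receptor, rose by 0.94 (SE 0.200, adjusted p = 0.0289). Of 6 EGR corepressors and known EGR targets, 1 rose and none fell: Plau, the urokinase protease, was higher by 0.89 (SE 0.125, adjusted p = 0.00263). Nab2, a corepressor that EGR proteins both induce and bind, stood at -0.35 (SE 0.142, adjusted p = 0.255).

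Of 11 known AP-1 targets tested, 2 rose and none fell. They were Plau again and the chemokine Ccl2, at 0.76 (SE 0.142, adjusted p = 0.0145). Of 10 secreted and enzyme-coding early genes, 3 rose and 1 fell. Sphk1, a sphingosine kinase, rose by 1.51 (SE 0.207, adjusted p = 0.00223), and Ccn2, a matricellular growth factor, by 1.01 (SE 0.158, adjusted p = 0.00559), beside Ccl2. Ptgs2, the inducible cyclooxygenase, fell by 2.31 (SE 0.146, adjusted p = 2.75e-05). Early genes thus went both ways at 48 h. At 4 h none of the genes in the 6 lists passed, and only Ptgs2 passed for the change of effect between times, at -1.48 (SE 0.220, adjusted p = 0.0275).

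**Figure D5:**
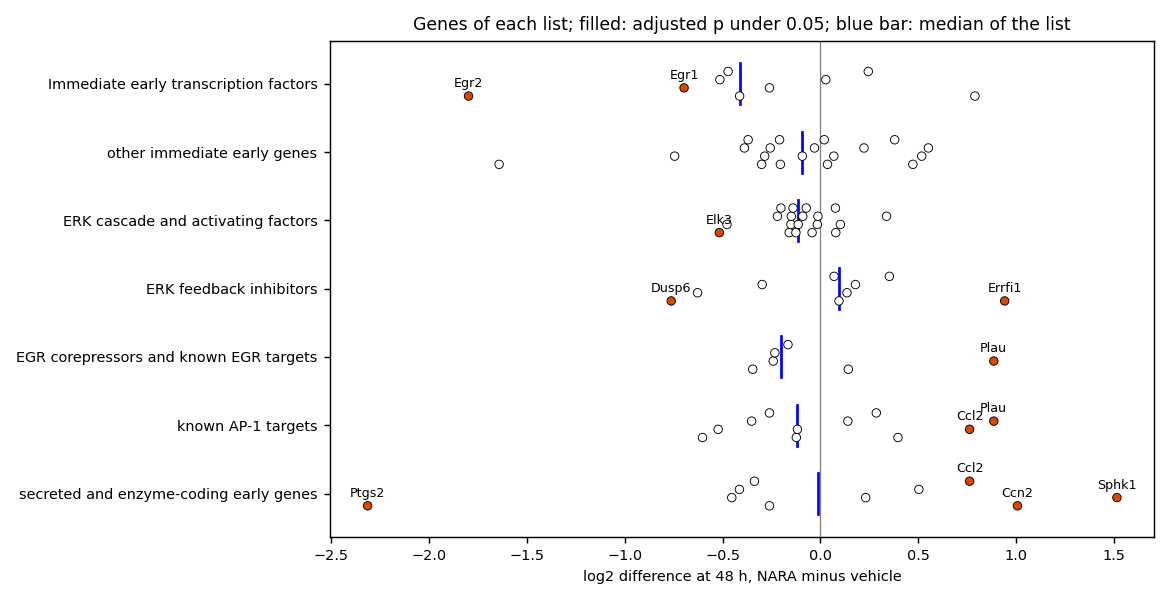
Log2 difference at 48 h, NARA minus vehicle, of each tested gene in the members' list and the 6 pathway lists. Filled points passed and are named, and blue bars are list medians, which lay at -0.41 for the members and at -0.093 for other immediate early genes.

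Genes whose course over the 13 arrays was most like that of Egr2, Egr1 and Fos were found by the root mean square distance of centred log2 values among 11277 other genes. For Egr2 these were Gjb2, a gap junction protein, at 0.197, then Srpx2 (0.279), Osr2 (0.288), Fam171a1 (0.318) and Ptgs2 (0.327), where the spread of Egr2 itself was 0.768. All 5 passed lower at 48 h, the same arrays by which they were chosen. Gjb2 read 3582 in vehicle and 1031 in NARA as means at 48 h, and 3367 and 2253 at 4 h. Ptgs2 read 4758, 4158 and 4837 in the vehicle 48 h arrays and 986, 1025, 647 and 913 in the NARA 48 h arrays, and, like Egr2, its 2 NARA 4 h arrays (2230 and 2329) lay below all vehicle 4 h arrays (3746 to 4314).

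For Egr1 the nearest genes were Lrch3 (0.129), Vav3 (0.152), Tgif1 (0.166), Anpep (0.171) and Marcksl1 (0.171), against its own spread of 0.322. Marcksl1 read 15170 in vehicle and 10183 in NARA as means at 48 h and 10416 in vehicle at 4 h, so it too was highest with vehicle at 48 h. For Fos the nearest gene, Shld1, lay at 0.479 against a spread of 0.765, so no gene followed Fos closely. These distances are descriptions over 13 arrays, and the lists for Egr1 and Egr2 shared no gene.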

How the data were processed

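Total RNA (5 µg per sample) from 16 samples was hybridised to 1 Affymetrix array each. The labels' protocols give a Trizol extraction and the series' design text a column kit. The deposited intensity values are MAS5 signals, per the submitters' processing notes, scaled by the authors to a trimmed mean of 1500, per the series' design text; the files gave 1500.45 to 1500.56. Detection calls were not used here. Log2(signal + 50) was fitted as group means with limma 3.58.1 in R 4.3.3 (lmFit, eBayes; 9 residual and 2.40 prior degrees of freedom), and two-sided p-values were adjusted by Benjamini-Hochberg over 20904 of 31042 probe sets with a mean of at least 300. The offset understates changes of dim probe sets. The fit was tested on simulated data. Members, lists and likeness genes (the 5 nearest) were set by fixed rules; up to 4 genes a list are named by p, others being chosen after their values were seen (Dusp5 at its motifs, Srf, Creb1). Members and lists were chosen with earlier results of these data known. Motifs were searched in RefSeq promoter windows (GRCr8). Alternatives changed arrays, groups, offset, minimum, scaling, prior, block and probe set.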

Additional observations from a re-analysis of the deposited data

Results flagged for a closer look

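In 26 groups of 4 arrays, 3 held an array distant from the others, where chance gives about 1 in 20. Fosl1 was low in vehicle 4 h replicate 4, at 1335 against 2164 for the nearest array. Ier2 was high in the same array, at 3034 against 2436. A Jun probe set was high in vehicle 4 h replicate 1, at 3165 against 2670.

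Among arrays the authors left out, some members lay above the highest vehicle 4 h array. Ier2 read 5703 in NARA 4 h replicate 1 and 3865 in replicate 4, against at most 3034 with vehicle. Junb read 1838 and 1534 against at most 1039. Egr1 read 15586 in replicate 1 against 15042, and Fos read 958 in replicate 4 against 863. In the same 2 arrays Egr2 read 287 and 593, and their liver marker sums stood far above those of the 13 arrays.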

How the results depend on the processing

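At 48 h, 2 members and 586 probe sets passed. With all 16 arrays these were 0 and 39, with only the groups compared 1 and 217, with no minimum 1 and 355, and without single arrays 1 to 2 and 310 to 527, lowest without vehicle 48 h replicate 3 (310) or 2 (321). A minimum of 1000 gave 1069 probe sets and a trended and robust prior 1098. At 4 h, 0 probe sets passed, against 1 with all 16 arrays, 4 with only the groups compared, 2 with a minimum of 1000, 9 with the robust prior and 0 to 19 without single arrays, of which NARA 4 h replicate 3 gave 19 and replicate 2 gave 11. For the change of effect, 26 passed, against 0 with all 16 arrays, 46 with an offset of 200, 11 with no minimum and 1 to 32 without single arrays. The latter was 1 without vehicle 48 h replicate 3 or NARA 48 h replicate 4, 5 and 8 without NARA 4 h replicates 3 and 2, 13 without vehicle 4 h replicate 3 and 17 without vehicle 48 h replicate 2. The count was 93 with a minimum of 1000, 126 with the robust prior and 60 with vehicle 48 h replicate 1 put back, an alternative chosen after seeing the data; each of these had 1 member, Egr2. For vehicle over time, 0 passed, and 0 to 2 without single arrays (2 without vehicle 48 h replicate 2). The 0 members at 4 h and in vehicle over time held under all of these.

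Same-numbered samples did not deviate together (correlations -0.036 to 0.039), so the replicate number is no known pairing. With it as a block, 1 member and 312 probe sets passed at 48 h (Egr1 at adjusted p = 0.0955) and 0 for the change of effect, and Nr4a1 in vehicle over time became 0.070.

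Egr2 and Egr1 kept their sign at 48 h in all alternatives run. Signs turned for values that had not passed. With all 16 arrays, 4 h values became -0.57 for Jun, 0.33 for Junb and 0.37 for Ier2, the change of effect became 0.19 for Egr2 and 0.67 for Jun, and Nr4a1 in vehicle over time became 0.13 (also 0.13 with 14 arrays). With other probe sets, Fos became -1.004 at 48 h, -1.51 for the change of effect and 0.80 in vehicle over time, and Jun became -0.35 at 48 h and 0.25 for the change. The change became -0.026 for Fos with an offset of 200 and 0.052 for Jun with 14 arrays. Without single arrays, ranges crossed 0 for Jun at 48 h (-0.056 to 0.092), at 4 h for Egr3 (-0.51 to 0.11), Fosl1 (-0.19 to 0.12) and Junb (-0.70 to 0.094), for the change in Fos (-0.51 to 0.58), Jun (-0.098 to 0.050) and Junb (-0.57 to 0.22), and in vehicle over time for Ier2 (-0.070 to 0.16) and Nr4a1 (-0.29 to 0.19). The cause was not tested. Leaving out 1 of the 2 NARA 4 h arrays leaves 1, assumed to vary like the other groups.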
